A study of Mus musculus with 28 samples.

Results

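The tubulin genes described here are 10 genes of 22919 listed, 5 encoding alpha-tubulins (Tuba1a, Tuba1b, Tuba1c, Tuba4a and Tuba8) and 5 encoding beta-tubulins (Tubb2a, Tubb2b, Tubb3, Tubb5 and Tubb6). They were chosen by symbol, and the set was drawn up with their log2 changes in the 7 comparisons and their control levels already known. The counts of called genes below therefore describe values that took part in the choice, and no test is made over the set. All 10 were found, had a test in every comparison and passed the authors' filter on low counts, with mean normalized counts from 61.5 for Tubb6 to 2258 for Tuba1a over all libraries.

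Nascent RNA was measured by Bru-seq, in which newly made RNA takes up bromouridine and is then captured with an antibody. Forebrain cells (cortex and hippocampus) of CD1 mouse embryos at embryonic day 18 were grown as a mixed culture of neurons, astrocytes and oligodendrocyte precursor cells, and each replicate came from a pool of embryos matched for sex ratio. Every culture received lentivirus on day 14 in vitro, carrying either a control short hairpin RNA (shCtrl) or one directed at Rai1 (shRai1), a chromatin-associated regulator of transcription. On day 17 the cultures were given water (vehicle), 1 µM tetrodotoxin (TTX), which blocks voltage-gated sodium channels and silences firing, or 20 µM bicuculline (BIC), which blocks GABA-A receptors and raises network activity, for 4 h, with 2 mM bromouridine in the last 20 min. The 16 libraries form 6 groups, 4 with 3 libraries, while shCtrl vehicle (replicates 1 and 2) and shCtrl BIC (replicates 2 and 3) have 2 each and share 1 replicate number. The shCtrl vehicle libraries enter 3 comparisons (TTX in shCtrl, BIC in shCtrl and shRai1 against shCtrl in vehicle), so those are not independent of each other. Values per library were not used here, so the spread is given as the deposited standard error (SE).

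Microtubules are hollow polymers of alpha- and beta-tubulin heterodimers. They carry axonal and dendritic transport, and in the brain several isotypes are made side by side. Tuba1a is the main alpha-tubulin of young postmitotic neurons, Tubb3 is the neuron-specific beta-tubulin, and Tubb2a, Tubb2b and Tubb5 are further beta-tubulins of the developing brain. Mutations of human TUBA1A, TUBB2B and TUBB3 cause cortical malformations. Tuba1b and Tuba1c are widely made alpha-tubulins, Tuba4a is an alpha-tubulin encoded without the carboxy-terminal tyrosine that most others carry, Tubb6 is a broadly expressed beta-tubulin, and Tuba8 is an alpha-tubulin divergent in sequence from the Tuba1 genes. Cells also adjust tubulin mRNA to the pool of free dimers through TTC5, which binds tubulin as it is being translated and leads to decay of its mRNA. That step acts on mature mRNA, whereas a short bromouridine label reads mostly RNA made within the label. Whether autoregulation had a part in the values below was not tested.

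Promoter sequences, the 250 bases before the gene start in RefSeq's GRCm38.p6 annotation, were matched for 8 of the 10 genes. The motifs searched on both strands were TATAA, the core of a TATA box, then CCAAT, the core bound by NF-Y, then GGGCGG, known as a GC box, then TGACGTCA, a full cAMP response element, and TGANTCA, the AP-1 site. The windows of Tuba1a, Tubb2a and Tubb3 are shown because they hold the TATAA letters, and that of Tuba8 because its values went the other way from theirs under BIC; every match is in capitals. In that build the windows lie at chr15:98953502-98953751 (Tuba1a, minus strand), chr13:34078009-34078258 (Tubb2a, minus strand), chr8:123411303-123411552 (Tubb3, plus strand) and chr6:121210484-121210733 (Tuba8, plus strand), each printed along the gene's own strand.
Tuba1a: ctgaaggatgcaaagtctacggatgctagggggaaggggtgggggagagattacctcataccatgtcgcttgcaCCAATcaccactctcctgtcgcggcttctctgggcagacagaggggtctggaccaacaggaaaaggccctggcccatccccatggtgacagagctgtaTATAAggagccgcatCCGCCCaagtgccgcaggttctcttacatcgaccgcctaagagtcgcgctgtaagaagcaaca
Tubb2a: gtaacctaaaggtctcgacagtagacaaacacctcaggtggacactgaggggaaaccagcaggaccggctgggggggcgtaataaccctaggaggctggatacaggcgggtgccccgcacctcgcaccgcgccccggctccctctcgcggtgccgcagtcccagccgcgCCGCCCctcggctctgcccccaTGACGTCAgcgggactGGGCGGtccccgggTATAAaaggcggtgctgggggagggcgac
Tubb3: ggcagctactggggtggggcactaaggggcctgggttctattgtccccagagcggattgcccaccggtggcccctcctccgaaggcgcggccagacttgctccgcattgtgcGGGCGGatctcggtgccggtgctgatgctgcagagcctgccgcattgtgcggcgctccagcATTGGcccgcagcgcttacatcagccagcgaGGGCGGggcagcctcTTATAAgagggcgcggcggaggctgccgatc
Tuba8: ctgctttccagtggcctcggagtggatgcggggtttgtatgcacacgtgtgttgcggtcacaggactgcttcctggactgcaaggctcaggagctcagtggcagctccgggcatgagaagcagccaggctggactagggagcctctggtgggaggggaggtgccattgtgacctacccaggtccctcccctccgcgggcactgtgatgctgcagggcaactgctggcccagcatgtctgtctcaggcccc
TATAA was found in 3 of the 8 (Tuba1a, 78 bases before the start, Tubb2a, 29 bases, and Tubb3, 30 bases, where the match is on both strands) and in 22.8% of 32851 promoters of the same length. CCAAT was found in 4 of the 8 (33.8% of all), GGGCGG in 5 of the 8 (32.7% of all), TGACGTCA in 1 of the 8, Tubb2a at 59 bases (1.55% of all), and TGANTCA in 0 of the 8 (6.75% of all). The Tuba8 window held none of these letters. A match describes the sequence and was not tied to the binding of any factor.

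Members lay on 7 chromosomes of mm9, the build named in the submitters' processing notes, and the file's gene intervals were short, from 2.96 kb for Tuba1b to 15.3 kb for Tuba8. Tuba1b (chr15:98761862-98764821), Tuba1a (chr15:98780278-98783932) and Tuba1c (chr15:98860322-98868536) form a cluster spanning 107 kb. Tubb2a (chr13:34166147-34169877) and Tubb2b (chr13:34218877-34222223) lie 49.0 kb apart. Tuba4a (chr1:75207404-75215828), whose interval overlaps that of Stk16, Tuba8 (chr6:121160788-121176115), Tubb3 (chr8:125935464-125945910), Tubb5 (chr17:35970865-35975246) and Tubb6 (chr18:67550385-67562403) stand alone. The coding sequences within each cluster are nearly identical, as are those of some processed pseudogenes such as Tubb2a-ps2, and how reads matching several genes were counted is not given in the sources used here. Values of Tuba1a, Tuba1b, Tuba1c, Tubb2a and Tubb2b are therefore uncertain as to which copy each read came from, and the Tuba4a value as to its overlap with Stk16.

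Rai1 itself was not called lower in any comparison of the libraries labelled shRai1 with shCtrl: its log2 change, read from the authors' deposited table, was 0.16 with vehicle (SE 0.07, adjusted p = 0.357), -0.12 with TTX and 0.03 with BIC, and the position of the hairpin's target and any loss of mature mRNA or protein were not measured here. The pooled FPKM columns of the knockdown arm did not follow the deposited comparisons of that arm: of genes called in the shRai1 TTX comparison 16.8% had the same sign in those columns, and of those called under BIC 62.5%, against 91.6% and 90.6% in the control arm. With the columns named untreated and TTX each read over the one named BIC, the signs matched for 89.8% of the genes called under TTX and 93.0% of those called under BIC. The names of the knockdown columns and the labels of the comparison tables thus disagree. Every shRai1 value below (drug responses, comparisons with shCtrl and profiles over the groups) takes the comparison tables as labelled. As labelled, 6 of 21192 genes were called between the arms in TTX and 2 in BIC. The drug comparisons within shRai1 called 2121 genes higher and 2601 lower under TTX, and 3722 higher and 3725 lower under BIC. Which of the names hold was not tested. FPKM levels are therefore given for shCtrl alone, and the knockdown columns enter only a mean over all conditions that filters low genes in the test of response differences. In bulk cultures, fewer cells of a type and less nascent RNA per cell cannot be told apart. Markers of neurons, astrocytes and oligodendrocyte-lineage cells were all above 0 in shCtrl vehicle, with summed FPKM of 738, 316 and 192, and 7 microglia markers summed to 22.0.

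Tuba1a had the highest control level of the 10 genes and Tuba8 the lowest. In shCtrl vehicle, pooled FPKM (fragments scaled to gene length and sequencing depth, 1 value per condition with the file's bounds) was 459 for Tuba1a (bounds 351 to 567), 270 for Tubb2a, 220 for Tuba1b, 187 for Tubb2b, 152 for Tubb3, 125 for Tuba1c, 102 for Tubb5 and 86.8 for Tuba4a. Tubb6 followed with 8.88 (bounds 5.64 to 12.1) and Tuba8 with 3.10 (bounds 1.17 to 5.04). The first 8 genes stood within the top 1001 of 23940 names, whereas Tubb6 ranked 8210 and Tuba8 12944. Only 3 neighbours in this order had bounds that did not overlap: Tuba1a above Tubb2a, Tuba4a above Tubb6, and Tubb6 above Tuba8. The last step depends on the scale, since the mean normalized count per kb of the whole interval was 9.77 for Tuba8 and 5.11 for Tubb6.

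On the same scale the alpha members summed to 894 FPKM in vehicle, 720 in TTX and 559 in BIC, and the beta members to 719, 616 and 465. The ratio of BIC to vehicle was thus 0.625 for the alpha and 0.647 for the beta members. Tuba1a went from 459 in vehicle to 361 in TTX and 284 in BIC, and Tubb3 from 152 to 131 and 78.6. The bounds of BIC and vehicle were apart for Tuba1a, Tubb3 and Tubb5 alone, and those of TTX and vehicle overlapped for all 10. Tubb6 ran the other way, with 8.88, 10.3 and 13.2 FPKM in vehicle, TTX and BIC, within overlapping bounds.

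**Figure D1:**
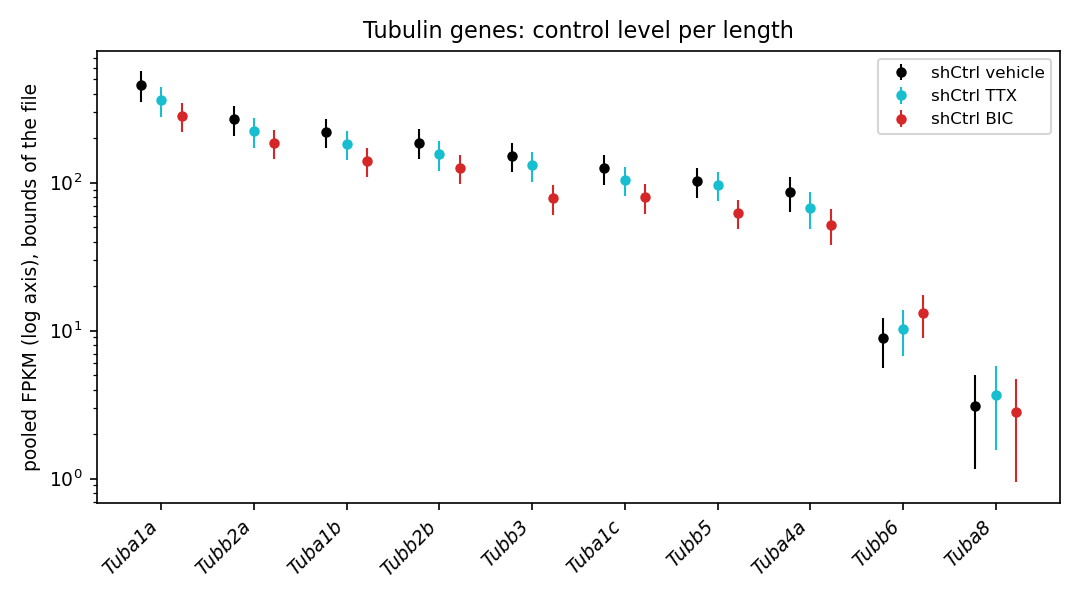
Pooled FPKM (log axis) of the 10 tubulin genes in shCtrl vehicle, TTX and BIC, with vertical bars for the bounds given in the file. The 8 most abundant genes lie between 86.8 and 459 in vehicle with BIC lowest for each, and Tubb6 and Tuba8 lie at 8.88 and 3.10.

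Under BIC in shCtrl, nascent RNA of 8 tubulin genes fell and that of Tuba8 rose. Here and below, a call means that the authors' DESeq2 Wald test had an adjusted p under 0.05. The 8 lower and 1 higher calls stand against 17.0% of tested genes lower and 17.4% higher in the same deposited comparison, and the median log2 change of the 10 genes was -0.61 against -0.00 over all genes tested. Because this contrast took part in choosing the genes, nothing is read from those shares.

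Among the alpha-tubulins, Tuba1a stood lowest under BIC in shCtrl, with -0.73 (SE 0.12, adjusted p = 3.92e-08) in the authors' deposited table, or 0.604 of the vehicle level. The other cluster members were close to it, with -0.63 (SE 0.14) for Tuba1b and -0.61 (SE 0.16) for Tuba1c in the authors' deposited table. Tuba4a, on another chromosome, stood at -0.55 (SE 0.11) there. Tuba8 was at 0.86 (SE 0.18, adjusted p = 1.65e-05), or 1.82 times the vehicle level, in the authors' deposited table. So 4 alpha-tubulins fell by a like amount and Tuba8 rose. The rise of Tuba8 was not seen in pooled FPKM, which was 3.10 in vehicle and 2.82 in BIC with overlapping bounds.

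Among the beta-tubulins, the neuron-specific Tubb3 had the lowest adjusted p of the 10 genes, with -0.72 (SE 0.11, adjusted p = 2.09e-10) in the authors' deposited table, or 0.605 of vehicle. Tubb5 stood at -0.62 (SE 0.12) and Tubb2b at -0.61 (SE 0.12) in the authors' deposited table. Tubb2a was at -0.39 (SE 0.11, adjusted p = 0.00135) there, the smallest of the called decreases. Tubb6 was at 0.05 (SE 0.26, adjusted p = 0.917) in the authors' deposited table, and it has the lowest count and the widest SE of the 10.

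In shRai1 the BIC log2 changes of 9 genes lay nearer 0 than in shCtrl, a difference that passed the test given further on for 0 of them. BIC calls there were 5 lower (21.3% of all genes tested) and 1 higher (21.3%), with a median of -0.23. Tubb3 again had the smallest adjusted p, at -0.39 (SE 0.08, adjusted p = 1.58e-05) in the authors' deposited table. Tubb5 was at -0.30 (SE 0.10, adjusted p = 0.00732), Tuba1a at -0.28 (SE 0.10, adjusted p = 0.0103), Tuba1b at -0.28 (adjusted p = 0.0323) and Tubb2b at -0.22 (adjusted p = 0.0427) in the authors' deposited table, all called. Tuba1c at -0.23, Tuba4a at -0.14 and Tubb2a at -0.06 did not pass in the authors' deposited table. Tuba8 rose, with 0.33 (SE 0.14, adjusted p = 0.0404) in the authors' deposited table, and Tubb6 was at 0.33 (SE 0.23, adjusted p = 0.244). With the median of genes at a mean count of 50 or more, -0.03, subtracted, Tuba1b (adjusted p = 0.0644) and Tubb2b (adjusted p = 0.0922) no longer passed.

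Under TTX in shCtrl, 5 of the 10 genes fell (14.9% of all genes tested were lower) and 0 rose (11.8% were higher), with a median of -0.29; 6 had an unadjusted p under 0.05, as had 26.3% of all genes. The called genes had similar sizes in the authors' deposited table: -0.34 (SE 0.10, adjusted p = 0.00284) for Tuba4a, -0.34 (SE 0.11, adjusted p = 0.0109) for Tuba1a, -0.33 (SE 0.09, adjusted p = 0.00337) for Tubb2a, -0.31 (SE 0.11, adjusted p = 0.0161) for Tubb2b and -0.27 (SE 0.09, adjusted p = 0.0181) for Tubb3. This comparison shares its vehicle libraries with that of BIC in shCtrl. Tubb5 was at -0.01 (SE 0.11, adjusted p = 0.979) in the authors' deposited table, and its BIC value there was -0.62. Tubb6 had the lowest log2 change of the 10, -0.52, with an SE of 0.25 and an adjusted p of 0.105 in the authors' deposited table, and its pooled FPKM was 8.88 in vehicle and 10.3 in TTX. Tuba1b at -0.19, Tuba1c at -0.26 and Tuba8 at 0.17 did not pass in the authors' deposited table.

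Under TTX in shRai1, Tuba8 fell, with -0.73 (SE 0.15, adjusted p = 9.51e-06), or 0.604 of vehicle, in the authors' deposited table. Calls in all were 3 lower (16.8% of genes tested) and 1 higher (13.7%), with a median of -0.01. The other called genes were small and close to the threshold in the authors' deposited table, with Tuba4a at -0.22 (adjusted p = 0.0404), Tubb2a at -0.21 (adjusted p = 0.0393) and Tubb5 at 0.23 (adjusted p = 0.0463). Without the authors' filter on low genes 1 gene, Tuba8, was called, and after the median was subtracted Tuba4a had an adjusted p of 0.0504. Tuba1a at 0.12, Tuba1c at 0.12, Tuba1b at 0.01, Tubb3 at -0.00 and Tubb2b at -0.02 were not called in the authors' deposited table, nor was Tubb6 at -0.53 (adjusted p = 0.0756).

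**Figure D2:**
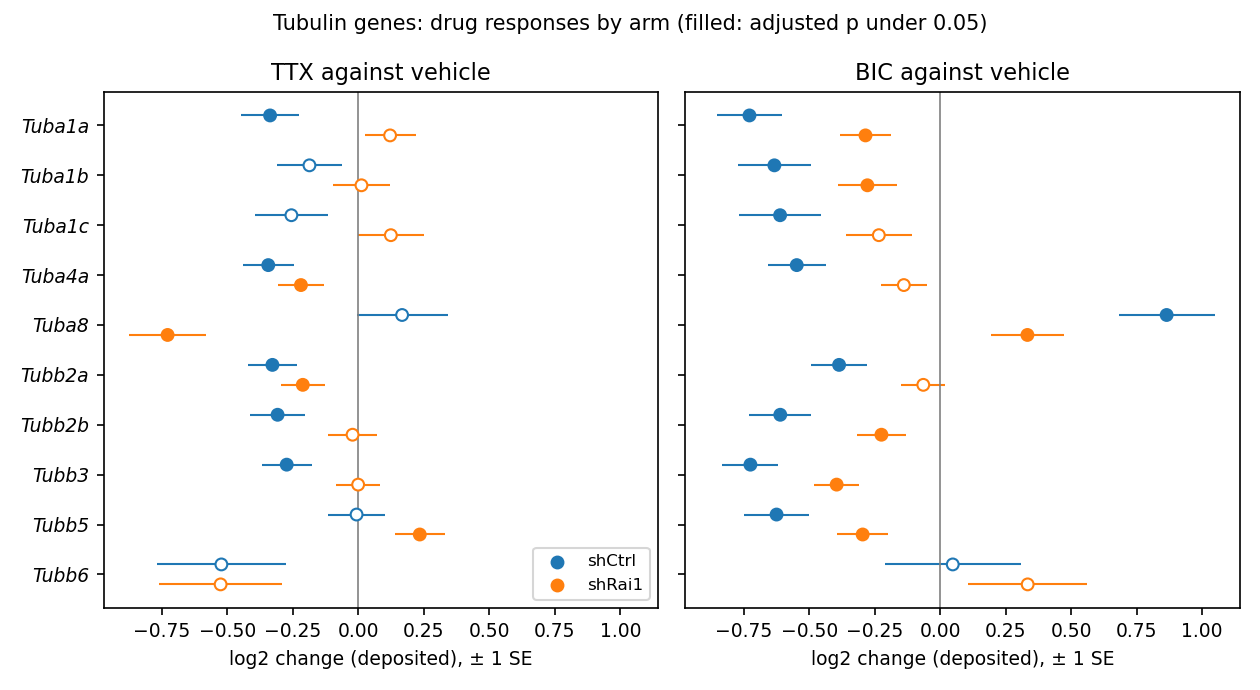
Deposited log2 change (horizontal axis) of each tubulin gene under TTX and under BIC against vehicle, in shCtrl and in shRai1, with bars of 1 SE and filled points where the adjusted p is under 0.05. Under BIC in shCtrl 8 genes lie between -0.73 and -0.39 and Tuba8 at 0.86, and under TTX in shRai1 Tuba8 lies at -0.73.

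Whether a response differed between the arms was tested by subtracting the shCtrl response from the shRai1 response, over 18241 genes with Benjamini-Hochberg adjustment of a two-sided Wald test on the deposited values. For TTX the Tuba8 response went from 0.17 in shCtrl to -0.73 in shRai1, a difference of -0.90 (SE 0.23, adjusted p = 0.0182), and it was the 1 member called, against 0.356% of genes called below 0. The other 9 did not pass, with 8 above 0 and a median of 0.22 over the 10, and 5 of the 10 had an unadjusted p under 0.05, as had 9.05% of all genes (1651). The next smallest adjusted p was that of Tuba1a, whose difference was 0.46 (SE 0.15, adjusted p = 0.111). For BIC 0 members were called (0.0219% of genes were, in either direction) and every member's adjusted p was 0.999941. Of the 10, 9 were above 0 with a median of 0.34, and 8 had an unadjusted p under 0.05, as had 3.03% of all genes (552) by the same Wald test. The members' values come from the same libraries, so these 8 are not 8 separate observations. Tuba1a differed by 0.44 (SE 0.16, unadjusted p = 0.00491), Tuba4a by 0.41 (SE 0.14, unadjusted p = 0.00373) and Tuba8 by -0.53 (SE 0.23, unadjusted p = 0.0208).

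The direct comparison of shRai1 with shCtrl in vehicle called 2 of the 10 genes, and 9 had log2 changes below 0. Tuba1a fell, with -0.44 (SE 0.11, adjusted p = 0.0164), or 0.735 of shCtrl, in the authors' deposited table. Tuba8 rose, with 0.72 (SE 0.17, adjusted p = 0.00768), or 1.65 times shCtrl, in the authors' deposited table. Across all genes tested 0.730% were lower and 0.126% higher. The 8 genes not called ran from -0.46 for Tubb6 (SE 0.24) to -0.17 for Tubb2a (SE 0.09) in the authors' deposited table, and 6 of them had an unadjusted p under 0.05, as had 8.17% of the 20107 named genes, Tubb2b coming nearest with -0.36 (SE 0.11, adjusted p = 0.0693). The same 2 shCtrl vehicle libraries stand behind these values and behind the shCtrl drug responses.

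In the drug-treated cultures no tubulin gene was called between the arms. In TTX 0 of the 10 were called (0.0283% of genes were, in either direction) and 0 had an unadjusted p under 0.05 by the authors' DESeq2 test (3.30% of all genes had). Values ran from -0.46 for Tubb6 to 0.03 for Tubb3 in the authors' deposited table. In BIC 0 were called (0.00944% of genes were) and 1 had an unadjusted p under 0.05 by that test (2.93% of all genes had). This was Tuba4a at 0.21 (SE 0.10, adjusted p = 0.9997) in the authors' deposited table. Tuba1a, the gene lower in vehicle, stood at 0.01 (SE 0.10) in TTX and -0.00 (SE 0.11) in BIC there. Tuba8 stood at -0.17 (SE 0.15) in TTX and 0.19 (SE 0.16) in BIC in the authors' deposited table.

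**Figure D3:**
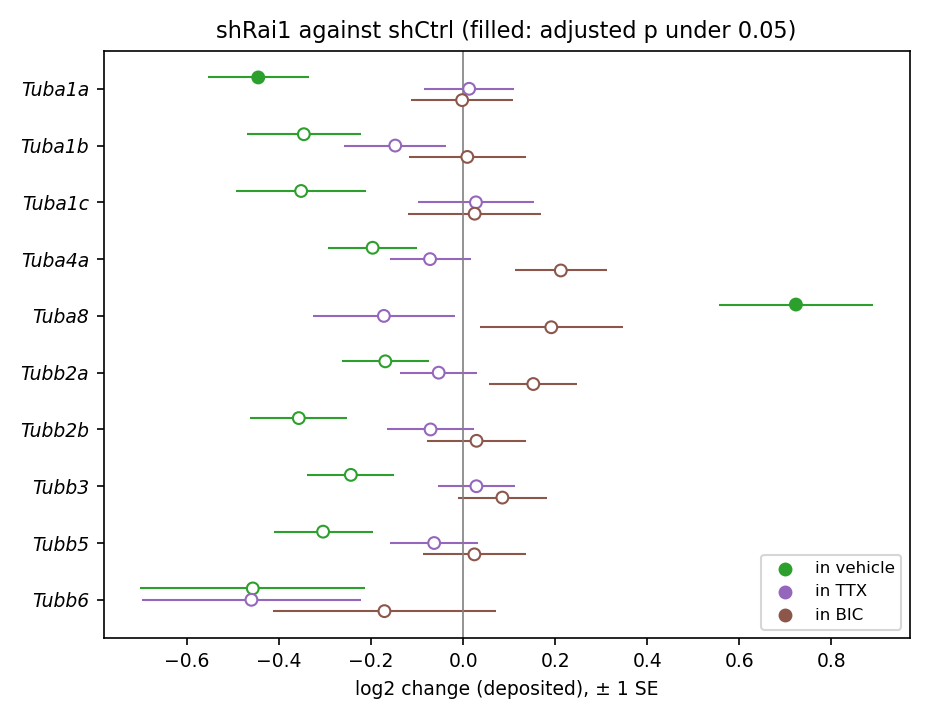
Deposited log2 change of shRai1 against shCtrl (horizontal axis) for each tubulin gene in vehicle, TTX and BIC, with bars of 1 SE and filled points where the adjusted p is under 0.05. In vehicle Tuba1a at -0.44 and Tuba8 at 0.72 are filled, and no point is filled in TTX or BIC.

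Put together as levels relative to each gene's own mean over the 6 groups, 8 of the 10 genes were highest in shCtrl vehicle and 7 were lowest in shCtrl BIC. Tuba1a ran from 0.43 in shCtrl vehicle to -0.30 in both BIC groups, with shRai1 vehicle at -0.02 and the TTX groups at 0.09 and 0.10. Tuba8 was at -0.47 in shCtrl vehicle and -0.30 in shCtrl TTX, at 0.40 in shCtrl BIC and 0.26 in shRai1 vehicle, and had its lowest level, -0.47, in shRai1 TTX and its highest, 0.59, in shRai1 BIC. Tubb6 was highest in shCtrl BIC (0.39) and lowest in shRai1 TTX (-0.64). BIC and TTX can be set side by side within an arm from the same values, as ratios with no SE or test. Tuba8 was 1.62 times as high in BIC as in TTX in shCtrl and 2.09 times in shRai1, and Tubb6 1.49 and 1.81 times. In pooled FPKM of shCtrl the order of Tuba8 was reversed, with 3.68 in TTX and 2.82 in BIC and overlapping bounds. That of Tubb6 was kept, with 10.3 in TTX and 13.2 in BIC, also within overlapping bounds. Tubb5 was at 0.652 of its TTX level in shCtrl and 0.692 in shRai1. Tuba4a (0.868 and 1.06) and Tubb2a (0.961 and 1.11) lay below 1 in shCtrl and above 1 in shRai1, and the other 5 genes lay below 1 in both.

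**Figure D4:**
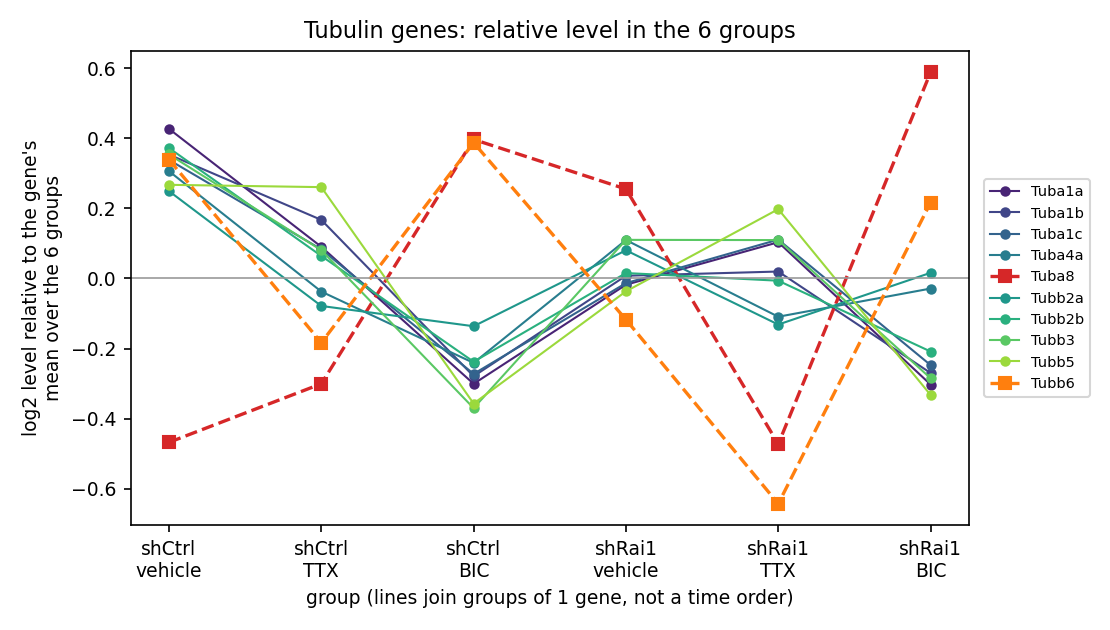
Log2 level of each tubulin gene relative to its own mean over the 6 groups (vertical axis), rebuilt from the deposited log2 changes, with dashed lines for Tuba8 and Tubb6. The 8 other genes start highest in shCtrl vehicle and lie below 0 in shCtrl BIC, while Tuba8 and Tubb6 lie near 0.40 and 0.39 there.

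Likeness was measured as the Euclidean distance between such 6-group profiles, over 12332 genes with a mean count of 50 or more. The genes nearest Tuba1a were 2610002M06Rik (distance 0.10), the cluster neighbour Tuba1c (0.11) and A2m (0.14). Tuba1b, Tubb3 and Tubb5 also had Tuba1c as nearest member, with 3, 12 and 275 other genes nearer, respectively. The median distance of Tuba1a to the other members was 0.26. The genes nearest Tuba8 were Hcn4 (0.31), Ptgfr (0.33) and Mrm1 (0.33), and 4410 genes lay nearer to it than its nearest tubulin, Tubb6, at 0.99. For the reads the near-identical cluster genes may share, a short distance between Tuba1a and Tuba1c can reflect counting, which was not tested.

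Of 10 other tubulin genes (further alpha and beta isotypes, and the gamma, delta and epsilon tubulins of centrosomes), 7 had an adjusted p in the drug comparisons. Of these 7, 1 was lower under TTX (14.9% of all genes) and 2 under BIC (17.0%) in shCtrl, and 0 rose in either; by DESeq2, 3 had an unadjusted p under 0.05 under each drug, as had 26.3% of all genes under TTX and 33.0% under BIC. Tubb4b, a broadly expressed beta-tubulin, was at -0.28 (adjusted p = 0.0492) under TTX and -0.45 (SE 0.13, adjusted p = 0.00155) under BIC in the authors' deposited table. Tubg1, the gamma-tubulin that nucleates microtubules, was at -0.63 (SE 0.22, adjusted p = 0.0135) under BIC there. Tubb4a was at -0.31 (SE 0.13, adjusted p = 0.0534) under BIC in the authors' deposited table, at a control level of 77.7 FPKM. In shRai1, Tubg2 alone was called under TTX (13.7% of all genes were higher and 16.8% lower). It rose, with 0.57 (SE 0.22, adjusted p = 0.0372) in the authors' deposited table. Its value under TTX in shCtrl was 0.56 (SE 0.25, adjusted p = 0.0776) in the authors' deposited table. Under BIC in shRai1 0 were called (21.3% of all genes each way). There 2 had an unadjusted p under 0.05 by the same DESeq2 test, as had 39.6% of all genes. Tuba3a, Tuba3b and Tubb1 were at or near 0 in the cultures and had no adjusted p in the drug comparisons.

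Counts for the lists of genes acting on tubulin stand beside the share of all genes tested: under BIC 17.4% were higher and 17.0% lower in shCtrl and 21.3% each way in shRai1, and under TTX 11.8% higher and 14.9% lower in shCtrl and 13.7% higher and 16.8% lower in shRai1. These counts describe the lists, and nothing particular to a list is read from them. Of 22 folding and autoregulation genes (the CCT and prefoldin chaperones, the tubulin cofactors and Ttc5), 5 rose and 3 fell under BIC in shCtrl, near the shares of all genes, and 6 rose and 2 fell in shRai1. Tbcd, a cofactor that assembles the dimer, was at -0.49 (SE 0.08) in shCtrl and -0.50 (SE 0.06) in shRai1 under BIC, as the authors' deposited tables list it. Ttc5, the autoregulation factor, was at 0.62 (SE 0.12, adjusted p = 8.53e-07) in shCtrl and 0.59 (SE 0.09, adjusted p = 1.44e-09) in shRai1 under BIC per the authors' deposited tables. Under TTX 2 rose and 4 fell in shCtrl, and 3 rose and 6 fell in shRai1, with the chaperonin subunit Cct8 at -0.44 (SE 0.11) and -0.51 (SE 0.09) in the authors' deposited tables. Cct4 was at -0.40 under TTX in shCtrl, and the prefoldin subunit Pfdn4 at -0.59 under TTX in shRai1, in the authors' deposited tables.

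Of 26 microtubule-associated proteins and stathmins, 11 rose and 7 fell under BIC in shCtrl (17.4% and 17.0% of all genes), and 14 rose and 6 fell in shRai1 (21.3% each). Map7, which recruits kinesin to microtubules, was at 1.59 (SE 0.10) and 1.26 (SE 0.08), and the microtubule stabiliser Map4 at 0.97 (SE 0.08) and 1.03 (SE 0.06), in shCtrl and shRai1 respectively, per the authors' deposited tables. These rose in the comparison in which 8 tubulins fell. Under TTX 4 rose and 9 fell in shCtrl, and 3 rose and 7 fell in shRai1. Mapre1, the plus-end binding protein EB1, was at -0.75 (SE 0.09) in shCtrl and -0.56 (SE 0.08) in shRai1, Map4 at -0.39 (SE 0.07) in shCtrl and the doublecortin-like kinase Dclk1 at -0.74 (SE 0.09) in shRai1, per the authors' deposited tables.

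Of 24 tubulin-modifying and severing enzymes, 9 rose and 7 fell under BIC in shCtrl (17.4% and 17.0% of all genes), and 8 rose and 8 fell in shRai1 (21.3% each). Ttll7 and Ttll5, which add glutamates to tubulin tails, were at 1.29 (SE 0.11) and 0.59 (SE 0.08) in shCtrl and at 1.46 (SE 0.09) and 0.71 (SE 0.06) in the shRai1 arm, per the authors' deposited tables. Under TTX 2 rose and 0 fell in shCtrl, where 6 had an unadjusted p under 0.05 by DESeq2, as had 26.3% of all genes. In shRai1 2 rose and 3 fell under TTX. Ccdc23, the older name of the vasohibin partner Svbp, was at 0.75 (SE 0.25) and 0.71 (SE 0.22) under TTX in shCtrl and shRai1, Ttll4 at 0.32 (SE 0.12) in shCtrl and Ttll11 at -0.34 (SE 0.07) in shRai1, all from the authors' deposited tables. Of 8 gamma-tubulin ring complex genes, beside the same shares, 1 rose and 1 fell under BIC in shCtrl, Tubgcp3 at 0.65 (SE 0.10) and Tubgcp5 at -0.47 (SE 0.13) in the authors' deposited table, and 1 rose and 2 fell in shRai1, among them Tubgcp3 at 0.46 and Tubgcp6 at -0.48. Under TTX none was called in shCtrl, where 0 had an unadjusted p under 0.05 by DESeq2, against 26.3% of all genes. In shRai1 2 rose under TTX, Tubgcp5 at 0.45 (SE 0.10) and Nedd1 at 0.55 (SE 0.20) in the authors' deposited table. No member of these 5 lists was called in a comparison of shRai1 with shCtrl or in the difference of responses.

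Some properties moved with some of these results, and their part in them was not tested. Genes with intervals under 20 kb, as all 10 members are, had a median of -0.10 under BIC in shCtrl (19.3% lower and 12.7% higher) against 0.00 for longer genes (23.7% lower and 26.5% higher), at a mean count of 50 or more. Under BIC in shRai1 these medians were -0.11 and 0.01. They lay the other way under TTX in shCtrl, at 0.02 and -0.02, and in shRai1 against shCtrl in vehicle, at 0.03 and -0.02. Under TTX in shRai1 both were -0.01. Marker counts are given over the markers with an adjusted p, beside the share of all genes tested. Under BIC in shCtrl (17.4% of all genes higher, 17.0% lower), 4 of 10 neuron markers rose and 2 fell, 0 of 9 astrocyte markers rose and 3 fell, 0 of 8 oligodendrocyte-lineage markers rose and 2 fell, and 2 of 3 microglia markers rose and 0 fell. Under TTX in shCtrl (11.8% higher, 14.9% lower), 1 of 10 neuron markers rose and 4 fell, 0 of 9 astrocyte markers rose and 3 fell, 1 of 8 oligodendrocyte-lineage markers rose and 4 fell, and 0 of 3 microglia markers were called. Under BIC in shRai1 (21.3% each way), 4 of 10 neuron markers rose and 2 fell, 1 of 9 astrocyte markers rose and 1 fell, 0 of 9 oligodendrocyte-lineage markers rose and 1 fell, and 1 of 5 microglia markers rose and 0 fell. Under TTX in shRai1 (13.7% higher, 16.8% lower), 0 of 10 neuron markers rose and 4 fell, 2 of 9 astrocyte markers rose and 1 fell, 5 of 8 oligodendrocyte-lineage markers rose and 0 fell, and 0 of 3 microglia markers were called. In shRai1 against shCtrl in vehicle (0.126% higher, 0.730% lower), 1 of 10 neuron markers rose and 0 fell, 0 of 8 astrocyte markers rose and 1 fell, 0 of 7 oligodendrocyte-lineage markers rose and 4 fell, and 0 of 2 microglia markers were called. In the difference of TTX responses, where Tuba8 was called below 0, 6 of 9 oligodendrocyte-lineage markers were called above 0 (0.587% of all genes) and 0 below, 1 of 10 neuron markers was called below 0 (0.356% of all genes) and 0 above, and 0 of 9 astrocyte and 0 of 6 microglia markers were called. From vehicle to TTX and BIC in shCtrl, summed FPKM went from 738 to 685 and 1013 for neuron markers, with Nefl alone going from 59.6 to 325 in BIC, from 316 to 264 and 227 for astrocyte markers, from 192 to 164 and 190 for oligodendrocyte-lineage markers, and from 22.0 to 22.9 and 31.7 for microglia markers.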

How the data were processed

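Bru-seq reads (stranded, single-end, per the labels) were processed by the authors with TopHat2 2.1.0, Bowtie2 2.2.6 and DESeq2 against mm9, per the submitters' processing notes, which give no order. Per the file headers, the 7 deposited comparison tables hold a mean normalized count as signal over all libraries, log2 change, SE, Wald score, p-value and adjusted p-value, and a deposited FPKM table holds 1 pooled value with bounds per condition. Depth per library is unknown, which leaves precision to the deposited SEs, and replicates are pools of embryos. The table of shRai1 against shCtrl in vehicle has no gene column; its rows were named by their mean count where unique (20107 of 21192), which recovered 20107 hidden names in another table, and log2 changes closed within 1e-09.

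Calls use the authors' adjusted p under 0.05. Differences of responses were computed with pandas 2.3.3, numpy 2.4.6 and scipy 1.17.1. SEs were added in quadrature, and genes of at least 0.1 FPKM on average were tested. On simulated data 93% (TTX) and 88.5% (BIC) of 200 genes changed by a log2 of 1 were recovered among 18241. Those 200 genes had a mean count of 50 or more. The members' differences were all smaller than a log2 of 1, so these shares do not give the recovery for them. Figures used matplotlib 3.10.9. Named were all members, genes among the 2 smallest adjusted p of a list in a drug comparison, the 3 nearest profiles and Rai1; Tubb4a and Nefl were added after their values were seen. Members and lists were chosen with earlier results of these data known. Alternatives were other thresholds, filters, centring and FPKM ratios. The 12 chromatin immunoprecipitation samples were not used here.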

Additional observations from a re-analysis of the deposited data

Results flagged for a closer look

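The Tuba8 response to TTX differed between the arms by the test of the difference itself, at -0.895 on the log2 scale (shRai1 minus shCtrl, SE 0.23, adjusted p = 0.0182 by the Wald test with Benjamini-Hochberg adjustment). The responses were 0.17 in shCtrl and -0.73 in shRai1 in the authors' deposited tables, at a mean normalized count of 150. Both were known when the genes were chosen, so the adjusted p of their difference describes values that took part in the choice. The levels of Tuba8 in the TTX cultures differed by -0.17 (SE 0.15) between the arms and those in the vehicle cultures by 0.72 (SE 0.17), and the vehicle level in shCtrl rests on 2 libraries. The shRai1 response takes the comparison tables as labelled, under which 6 of 21192 genes were called between the arms in TTX and 2 in BIC. Read by the names of the FPKM columns instead, that response would be the labelled BIC over TTX value, a log2 of 1.06. Which of the names hold was not tested.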

How the results depend on the processing

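At an adjusted p under 0.01 the members called went from 5 to 2 (TTX in shCtrl), 4 to 1 (TTX in shRai1), 6 to 2 (BIC in shRai1), 2 to 1 (shRai1 against shCtrl in vehicle) and 1 to 0 (TTX difference). With no filter on low genes, more genes were tested and TTX in shRai1 went from 4 to 1. The other 41 of 47 recounts stayed within 1.5 times. Of 74 single values centred or refitted, 69 kept direction and call, 3 lost the call (Tuba4a, Tuba1b and Tubb2b in shRai1, given above) and 2 that were not called crossed 0 when the median was subtracted, Tubb5 under TTX in shCtrl to 0.00261 and Tubb3 under TTX in shRai1 to 0.00793. Tuba8 under BIC in shCtrl reversed as a log2 ratio of pooled FPKM, to -0.134 and -0.104 at pseudocounts of 0.1 and 1; the cause was not tested. Of 40 such FPKM ratios 28 lay within 1 SE of the deposited value and 10 moved. Among these, Tubb6, not called by the authors, went under TTX in shCtrl from -0.52 to 0.207 and 0.189, a change of sign, and under BIC from 0.05 to 0.56 and 0.52. No paired analysis was possible because the tables used here hold only group summaries, so leaving out each replicate was not run either. Replicates 1 and 2 make up shCtrl vehicle and replicates 2 and 3 shCtrl BIC, which share 1 number. Tubb6 had the lowest count and the widest SE of the 10 genes in every comparison.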
